A study of Mus musculus with 6 samples.

Results

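Leptin and 9 other genes of the white fat cell were followed in mouse skin with a constitutively active Nrf2. The set comprised Lep, Adipoq, Plin1, Plin4, Cidec, Fabp4, Lpl, Retn, Cfd and Lipe, and it took in all probe sets annotated to any of them. In the probe annotation 8 of the 10 genes were found, with 13 probe sets among the 34945 that carry a single gene symbol. Plin1, a lipid droplet coat protein, and Cfd, the complement factor adipsin, are left out of the intensity comparison and enter only the promoter counts. Of several probe sets for 1 gene the brightest over all arrays was used, and on that basis the set is 8 of 18193 genes. The genes were chosen by their intensities in the comparison of the genotypes, leptin because it was lower there and the others as gauges of fat mass. Every value of that comparison is therefore given for them as a description and not as a test.

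The animals were 3 mice titled transgene, of the genotype K5cre-caNrf2 (tg/tg), and 3 control mice titled wildtype, of the genotype K5cre-wt (tg/wt). All 6 were females of 1 litter on a mixed FVB/N and C57BL/6 background, killed at postnatal day 2.5, and the K5cre transgene was common to both groups. Cre under the keratin 5 promoter acts in keratinocytes, so active Nrf2 is switched on in the epidermis and hair follicle, not in fat cells by design. RNA came from whole back skin, 1 mouse to 1 array. The genotype cell of the transgene samples reads tg/g, and the treatment cell names CaNrf2 in both groups, so the groups were taken from the titles.

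White fat cells lie in a layer under the dermis that fills with lipid around birth in the mouse. They take up fatty acids, store them as triacylglycerol in a droplet coated by perilipins, release them through lipases and secrete hormones. Leptin is the hormone that reports fat stores to the hypothalamus, and its transcript is known to vary with both the amount of fat and the fed, hormonal and cold-exposed state of the fat cell. Adiponectin, resistin and the droplet and uptake proteins are commonly used as marks of how much mature fat a tissue holds. In whole skin, fewer cells of a type and less RNA per cell cannot be told apart.

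The promoters of the 3 hormone genes of the set are shown because Lep was the gene that differed between the genotypes while Adipoq and Retn did not pass. Each stretch runs from 250 bases before to 50 bases after the annotated start (RefSeq, mouse build GRCm38.p6), and capitals mark a match to TTNCNNAA, a loose form of the site of C/EBP factors, which drive fat cell genes. Lep lies on the plus strand at chr6:29059971-29060270, Adipoq on the plus strand at chr16:23146286-23146585 and Retn on the plus strand at chr8:3655520-3655819.
Lep: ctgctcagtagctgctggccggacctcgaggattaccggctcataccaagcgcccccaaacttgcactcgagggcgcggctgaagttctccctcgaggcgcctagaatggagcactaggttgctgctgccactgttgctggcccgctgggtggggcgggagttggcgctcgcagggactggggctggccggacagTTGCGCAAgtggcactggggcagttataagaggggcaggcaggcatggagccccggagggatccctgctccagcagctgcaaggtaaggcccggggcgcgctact
Adipoq: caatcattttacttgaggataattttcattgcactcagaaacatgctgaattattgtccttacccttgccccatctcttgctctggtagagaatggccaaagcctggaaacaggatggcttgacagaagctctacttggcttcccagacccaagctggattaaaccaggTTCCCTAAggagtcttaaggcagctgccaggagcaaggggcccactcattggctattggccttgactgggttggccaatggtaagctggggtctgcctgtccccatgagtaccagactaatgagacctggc
Retn: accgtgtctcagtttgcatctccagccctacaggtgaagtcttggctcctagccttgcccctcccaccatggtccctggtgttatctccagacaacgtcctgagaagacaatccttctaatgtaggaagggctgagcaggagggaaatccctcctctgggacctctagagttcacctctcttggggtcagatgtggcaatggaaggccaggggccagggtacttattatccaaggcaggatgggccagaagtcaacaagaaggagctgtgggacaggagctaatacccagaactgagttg
The match in Lep, TTGCGCAA, lay from base -55 to base -48 before the start and read the same on both strands. The match in Adipoq, TTCCCTAA, lay from base -81 to base -74. Promoters were found for 8 of the 10 genes, Plin1 and Cfd among them, with 10 stretches in all. Of these stretches 5 held TTNCNNAA on either strand, against 40.7% of 32851 promoters of this length. None of the 10 held TGACNNNGC, the core of the antioxidant response element bound by Nrf2, which 12.4% of all promoters held. None held TTGCNNCAA, searched as a stricter C/EBP form (2.08% of all promoters), or TATAAA (13.6%), and the motifs do not contain each other. TTGCNNCAA is longer than TTNCNNAA, so the Lep match TTGCGCAA could not count as one. Its absence therefore does not grade that match. Fabp4 and Lpl had no promoter in the table. A match is a description of letters, and no match says only that these letters were not in the window.

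The deposited intensities are linear and come from RMA, a procedure that gives all arrays a near-equal distribution. Probe sets of Y-linked genes, which mark background in female mice, numbered 20 and had group means between 6.46 and 61.6, with a median of 11.8. In 14 of the 20 both group means were under 20, so the upper part of this span comes from the others. The transgene was visible in its effect, since Nqo1, a quinone reductase and standard Nrf2 target, averaged 1419 ± 99.3 in caNrf2 skin and 67.7 ± 4.36 in control skin (SD, n = 3 each). Nfe2l2, which encodes Nrf2, averaged 1200 ± 56.4 in caNrf2 skin and 775 ± 49.5 in control skin (SD, n = 3 each). Differences between the genotypes were fitted for all genes in limma, with Benjamini-Hochberg adjustment over all of them and a call at an adjusted p under 0.05. By that rule 412 genes were higher in caNrf2 skin, 2.26% of all, and 253 were lower, 1.39% of all.

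Lep was lower in caNrf2 skin in every animal. Its single probe set read 132, 119 and 118 in the 3 caNrf2 arrays, against 188, 185 and 176 in the 3 control arrays. The groups did not overlap, and the highest caNrf2 array lay well under the lowest control array. The means were 123 ± 7.56 in caNrf2 skin and 183 ± 5.82 in control skin (SD, n = 3 each). The log2 fold change was -0.58 ± 0.07 (SE), with a 95% interval of -0.72 to -0.43. On the linear scale that is a change of -32.9%, with an interval of -39.4% to -25.8%. All 6 values lay above the highest mean of a Y-linked probe set. With only 1 probe set for Lep, no other part of the transcript was read.

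Few genes were as low, but Lep was chosen for its low value here, so its rank is a description and no evidence. Of all 18193 genes, 44 had a log2 fold change at or below that of Lep, 0.242% of them. Genes of like brightness gave a similar share. Among the 2583 genes with a mean intensity within 1.5-fold of that of Lep (153), 9 lay at or below it, 0.348%. The middle of those genes was close to no change, at a median log2 fold change of -0.03, and their 5th and 95th percentiles were -0.27 and 0.22.

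**Figure D1:**
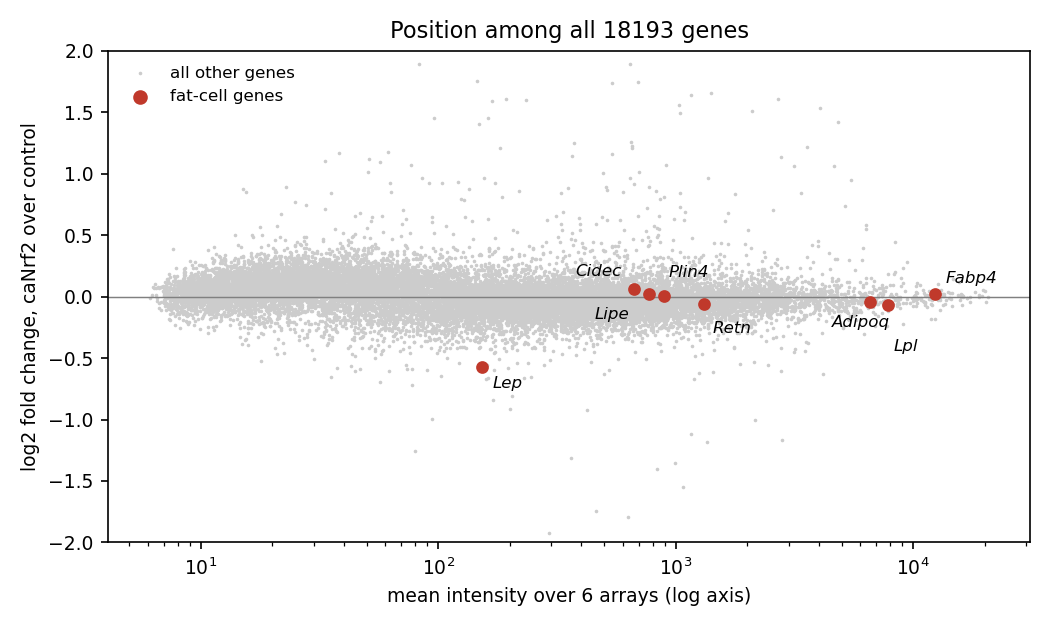
Log2 fold change of caNrf2 over control skin (vertical axis) against mean intensity over the 6 arrays (horizontal axis, log scale), 1 point per gene. Lep lies at -0.58 under the cloud of genes of its brightness, and the other 7 fat-cell genes lie between -0.07 and 0.07; 23 genes beyond 2 in either direction are not drawn.

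In the 2 other hormone genes the genotypes overlapped. Adipoq, which encodes adiponectin, a hormone that raises insulin sensitivity, read 6434, 6892 and 6053 in caNrf2 arrays, against 6564, 7155 and 6241 in control arrays. The lowest caNrf2 array and the lowest control array were close together, and the groups overlapped. The log2 fold change was -0.04 ± 0.07 (SE), with a 95% interval of -0.21 to 0.12. Retn, which encodes resistin, a hormone that mouse fat cells secrete, read 1393, 1397 and 1085 in caNrf2 arrays, against 1334, 1346 and 1327 in control arrays. A single animal, caNrf2 replicate 3, was low, while the other caNrf2 arrays were above all controls. Its log2 fold change was -0.06 ± 0.09 (SE), with an interval of -0.27 to 0.16, the widest downward reach among the 7 genes other than Lep.

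Genes of lipid droplet proteins overlapped between the genotypes as well. Plin4, a perilipin that coats droplets in white fat, read 931, 935 and 829 in caNrf2 arrays, against 959, 932 and 793 in control arrays. Each group had 1 low animal, replicate 3 in both, and the groups overlapped. Its log2 fold change was 0.01 ± 0.09 (SE; 95% interval -0.18 to 0.20). Cidec, which enlarges droplets by lipid exchange between them, read 640, 762 and 651 in caNrf2 arrays, against 659, 672 and 626 in control arrays. Only caNrf2 replicate 2 stood above the controls, and the log2 fold change was 0.07 ± 0.08 (SE; interval -0.11 to 0.24). Lipe, the hormone-sensitive lipase that releases fatty acids from the store, read 753, 793 and 787 in caNrf2 arrays, against 804, 803 and 695 in control arrays. Control replicate 3 was the lowest of all 6, and the log2 fold change was 0.02 ± 0.07 (SE; interval -0.14 to 0.18).

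Genes of fatty acid uptake and carriage gave no separation of the genotypes. Fabp4, the fatty acid carrier of fat cells, read 12103, 12763 and 12473 in caNrf2 arrays, against 12053, 12499 and 12206 in control arrays. The groups overlapped, and the log2 fold change was 0.02 ± 0.06 (SE; 95% interval -0.10 to 0.15). Lpl, the lipase that frees fatty acids from lipoproteins at the vessel wall, read 7669, 7629 and 7508 in caNrf2 arrays, against 8508, 7282 and 8242 in control arrays. Its caNrf2 arrays lay close together inside the wider range of the controls, and the log2 fold change was -0.07 ± 0.07 (SE; interval -0.23 to 0.08).

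**Figure D2:**
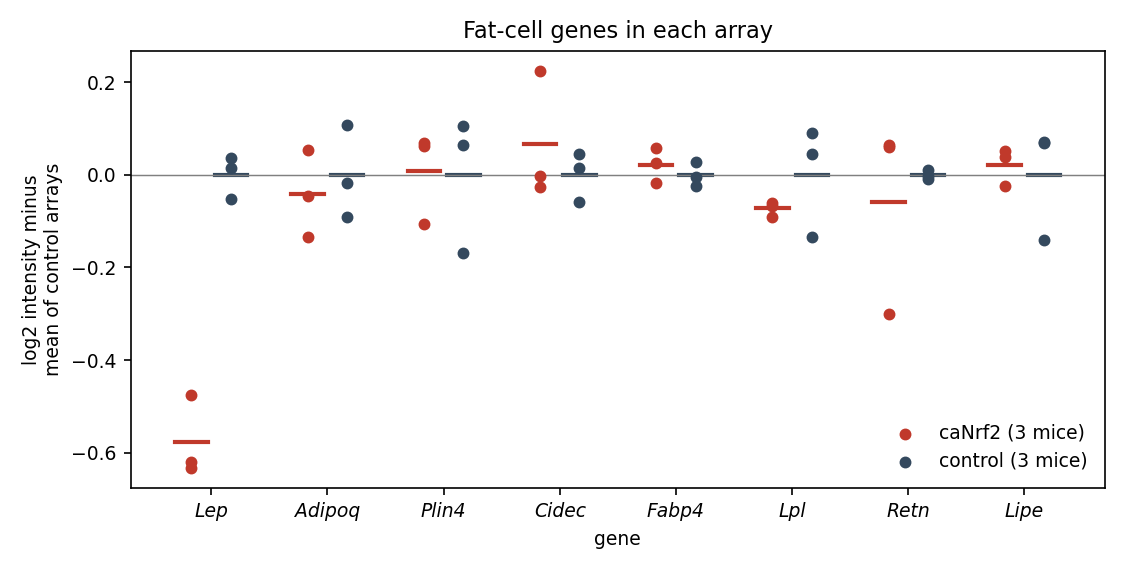
Log2 intensity of each gene in each array minus the mean of the 3 control arrays (vertical axis); points are mice, bars group means, with caNrf2 left of control. The 3 caNrf2 points of Lep lie from -0.63 to -0.48, apart from all controls, whereas the groups overlap in the other 7 genes.

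In 1 of the 8 genes, Lep, all caNrf2 arrays stood apart from all control arrays, beside 25.7% of all genes in either direction and 13.0% with caNrf2 lower. The call of lower expression was met by 1 of the 8, Lep, beside the background of 1.39%, and that of higher expression by 0, beside 2.26% (limma). At an unadjusted p under 0.05 the same 1 gene was lower and 0 were higher, beside 20.4% of all genes in either direction. Since the genes were chosen with this comparison known, nothing is read from these counts. The 7 genes other than Lep had a median log2 fold change of 0.01, against -0.00 over all genes, and ranged from -0.07 to 0.07. Each of their 95% intervals included 0, so that a small shift of any of them is left possible. The lowest bound among them was -0.27 and the highest 0.24, and no interval among them reached that of Lep.

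Further probe sets were available for Fabp4, Lpl and Lipe. The 3 others of Fabp4 gave log2 fold changes of 0.04 ± 0.09, -0.21 ± 0.14 and 0.13 ± 0.09 (SE). The one at -0.21 was also the most variable, at 318, 242 and 348 in caNrf2 arrays, against 351, 299 and 400 in control arrays. A second Lpl probe set gave -0.10 ± 0.07 (SE), close to the first. A second Lipe probe set averaged 14.9 ± 0.973 in caNrf2 skin and 13.2 ± 1.14 in control skin (SD, n = 3 each), inside the span of the Y-linked means, so its log2 fold change of 0.19 is not interpreted.

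**Figure D3:**
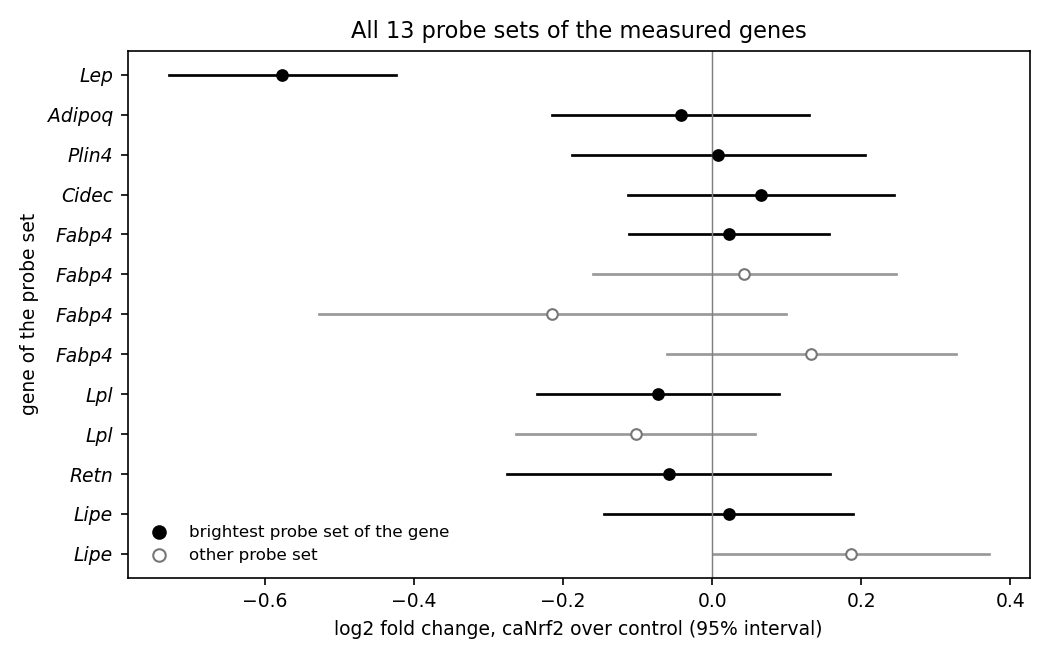
Log2 fold change of caNrf2 over control skin with its 95% interval (horizontal axis) for all 13 probe sets, from a fit over all single-symbol probe sets; filled points stand for the gene, open points are its other probe sets. The interval of Lep lies left of 0 and apart from those of the other filled points, while the widest interval belongs to a Fabp4 probe set at -0.21.

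The 7 other genes were also set beside Lep within each array. As a deviation from the control mean on the log2 scale, their median was -0.02, 0.06 and -0.09 in caNrf2 replicates 1, 2 and 3, against 0.01, 0.04 and -0.06 in control replicates 1, 2 and 3. The 2 groups overlapped in this median, and in both replicate 2 was highest and replicate 3 lowest. Lep deviated by -0.48, -0.62 and -0.63 in the caNrf2 replicates, against 0.04, 0.02 and -0.05 in the control replicates. The 2 groups were apart in Lep. Taken as Lep minus that median, the deviation was -0.45, -0.68 and -0.54 in caNrf2 arrays, against 0.02, -0.03 and 0.01 in control arrays. The 2 groups did not overlap in this difference, and no test is given because it combines genes chosen with the result known. Those genes were picked from the same comparison, so these values do not bear on why Lep was lower.

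**Figure D4:**
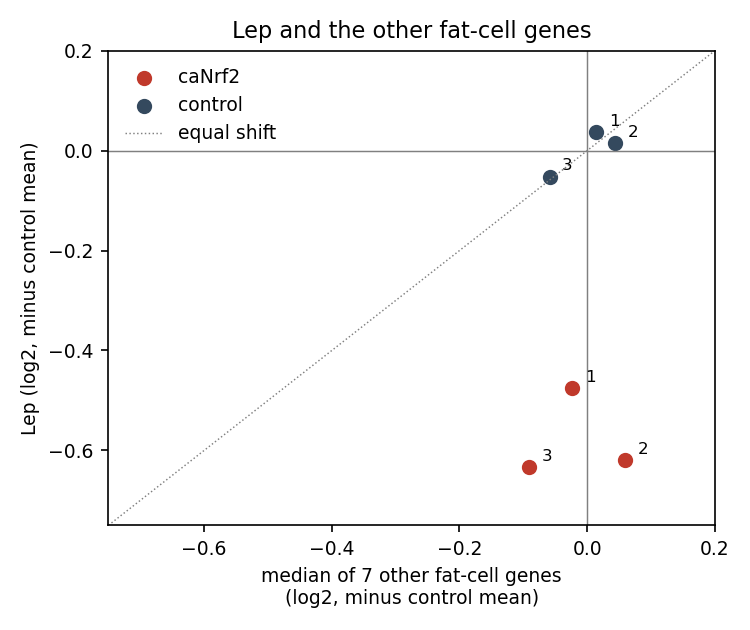
Lep (vertical axis) against the median of the 7 other fat-cell genes (horizontal axis), each as log2 intensity minus the mean of the control arrays; numbers are replicates and the dotted line marks an equal shift of both. The caNrf2 animals lie from -0.09 to 0.06 across and from -0.63 to -0.48 down, far under the line, while the controls lie on or near it.

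Genes whose pattern over the 6 arrays was most like that of Lep were not genes of the set. The ranking covered 13706 genes of mean intensity at least 32, with symbols of the Rik, Gm or LOC kind left out. By Pearson's r over 6 arrays, the genes most like Lep were Nfe2 (0.999), Cyfip2 (0.998), Prorp (0.996), Ppt1 (0.995) and Homer2 (0.994). Nfe2, a transcription factor of blood cells and a relative of Nrf2, averaged 30.1 ± 1.37 in caNrf2 skin and 45.2 ± 1.64 in control skin (SD, n = 3 each), both inside the span of the Y-linked means. Cyfip2, a regulator of actin assembly, averaged 145 ± 8.48 in caNrf2 skin and 199 ± 3.84 in control skin (SD, n = 3 each). All 5 correlations include the step between the genotypes, and r over 6 arrays is a description. For the members, r with Lep ran from -0.49 for Fabp4 to 0.46 for Lpl. The 5 genes most like Adipoq were Rpl27, Tyro3, Chpf, Fbf1 and Dhrs1, with r from 0.987 to 0.99 and log2 fold changes from -0.04 to -0.01. Among the members, r with Adipoq was 0.71 for Plin4, 0.64 for Retn, 0.61 for Cidec, 0.51 for Lipe, 0.41 for Fabp4, 0.30 for Lep and -0.35 for Lpl.

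Other genes of the fat cell were read in lists. For comparison, 2.26% of all genes were called higher, 1.39% were called lower and 20.4% had an unadjusted p under 0.05 (limma). The lists were chosen with earlier results of these data known, so their counts are descriptions. Of 13 further droplet proteins and lipases, 0 rose, 0 fell and 13 did not pass (limma), with a median log2 fold change of -0.05. At an unadjusted p under 0.05, 1 was higher and 3 were lower, 30.8% of the list beside 20.4% of all genes. Plin2, a perilipin found on droplets in most cell types, averaged 2218 ± 8.65 in caNrf2 skin and 2568 ± 136 in control skin (SD, n = 3 each; limma, adjusted p = 0.0995). Pnpla2, the lipase that starts triacylglycerol breakdown, gave 0.20 ± 0.07, and Mgll, which cleaves the last fatty acid, gave -0.17 ± 0.07 (log2 fold change ± SE). Of 15 genes of lipid and glucose uptake 0 rose and 0 fell (2 higher and 0 lower at an unadjusted p under 0.05), with a median of -0.02. Their smallest p-values were those of Slc1a3, a glutamate transporter (0.22 ± 0.07), Slc27a1, a fatty acid transporter (0.16 ± 0.07), and Gpihbp1, the anchor of Lpl on capillaries (0.13 ± 0.06), none of which passed. The other probe sets of Slc1a3 gave -0.13, 0.05, 0.13, 0.01 and 0.08, all short of its 0.22.

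Of 17 measured genes of triacylglycerol and fatty acid synthesis, 1 rose, 1 fell and 15 did not pass, with a median of -0.05. Acss2, which makes acetyl-CoA from acetate, read 365, 397 and 373 in caNrf2 arrays, against 322, 292 and 268 in control arrays. It rose by 0.37 ± 0.08 on the log2 scale (SE; limma, adjusted p = 0.0318), and 6 of 14 alternative settings lost the call, at an adjusted p of up to 0.0972. Elovl6, which elongates palmitate, read 2502, 2253 and 2307 in caNrf2 arrays, against 3031, 2745 and 3112 in control arrays. On the log2 scale it changed by -0.33 ± 0.07 (SE; adjusted p = 0.0353 in limma), lost in 5 settings at an adjusted p of up to 0.128. Scd2, a fatty acid desaturase, gave -0.14 ± 0.06 and did not pass.

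Transcription factors of fat cell formation gave no call. None of the 14 measured passed in either direction in limma (0 higher and 2 lower at an unadjusted p under 0.05), and their median was -0.02. The smallest p-values were those of Ebf1 (-0.25 ± 0.07), Klf15 (-0.22 ± 0.06) and Klf5 (0.13 ± 0.07; log2 fold change ± SE), regulators of fat cell differentiation. Pparg and Cebpa, the master regulators of mature fat cells and named here for that role after their values were seen, gave 0.01 ± 0.06 and -0.00 ± 0.06. Of 12 genes of fat cell precursors 0 rose and 0 fell (0 higher and 2 lower at an unadjusted p under 0.05), with a median of -0.05. Gata3 (-0.21 ± 0.07), Sox9 (-0.17 ± 0.07) and Pdgfrb (0.12 ± 0.07) came nearest to passing. RNA of whole skin does not tell which cells carried the transcripts of these lists, so they are not read as values of fat cells or their precursors.

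Secreted proteins linked to fat included 2 genes that rose. Adm, which encodes the vasodilator peptide adrenomedullin, made by many cell types, read 269, 281 and 300 in caNrf2 arrays, against 154, 164 and 150 in control arrays. It rose by 0.86 ± 0.07 (log2 scale, SE; limma, adjusted p = 6.46e-05), and its second probe set gave 1.13. Nampt, an enzyme of NAD synthesis also secreted as visfatin, read 555, 490 and 624 in caNrf2 arrays, against 408, 406 and 417 in control arrays. It rose by 0.43 ± 0.08 (SE; limma, adjusted p = 0.0239), but its other probe sets gave 0.14 and 0.17, and 6 settings lost the call, at an adjusted p of up to 0.201. Of the 14 measured genes of this list 2 rose, 0 fell and 12 did not pass, with a median of 0.03, and Vegfa, an angiogenic factor, gave 0.18 ± 0.06.

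The signals that act on fat cells and the receptor side of leptin gave no call either. Of 11 measured genes of hormone signalling in fat cells 0 rose and 0 fell (0 higher and 1 lower at an unadjusted p under 0.05), with a median of -0.01, and Npr3, the clearance receptor for natriuretic peptides (-0.17 ± 0.07), Irs1, an insulin receptor substrate (-0.11 ± 0.07), and Pde3b, which lowers cyclic AMP (-0.05 ± 0.06), had the smallest p-values. Of 10 genes of leptin receptor signalling 0 rose and 0 fell (1 higher and 1 lower at an unadjusted p under 0.05), with a median of -0.01. The phosphatases Ptpn11 (-0.19 ± 0.06) and Ptpn1 (0.19 ± 0.07) and the suppressor Socs1 (-0.09 ± 0.08) came nearest. Lepr, the leptin receptor itself, named for that role after its values were seen, averaged 538 ± 10.7 in caNrf2 skin and 546 ± 41.7 in control skin (SD, n = 3 each).

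**Figure D5:**
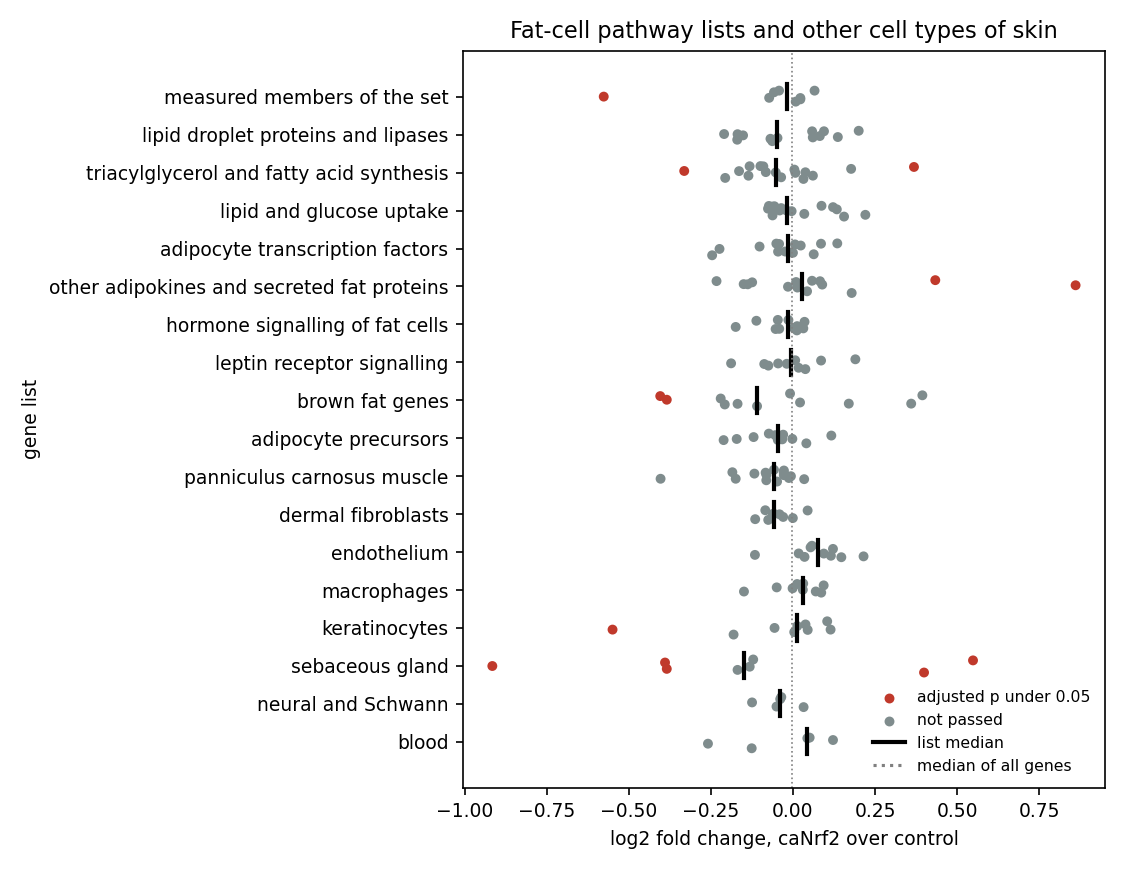
Log2 fold change of caNrf2 over control skin (horizontal axis) for each measured gene of 18 lists; red points passed at an adjusted p under 0.05, black bars are list medians and the dotted line is the median of all genes. List medians lie from -0.15 for sebaceous genes to 0.08 for endothelium, and the leftmost red points are Scd3 of the sebaceous list at -0.92 and Lep at -0.58.

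Brown fat, the heat-producing fat, was gauged by 11 measured genes, of which 0 rose, 2 fell and 9 did not pass, with a median of -0.11. At an unadjusted p under 0.05, 3 were higher and 4 lower, 63.6% of the list beside 20.4% of all genes. The summed intensity of the list was 2779 to 2865 in caNrf2 arrays and 3009 to 3254 in control arrays. A large part of that difference lay in Elovl3, given below and also on the sebaceous list, so the sum is no measure of brown fat alone. Ucp1, the uncoupling protein that defines brown fat, read 25.6, 22.1 and 31.1 in caNrf2 arrays, against 20.8, 18.9 and 19.7 in control arrays. The values lie inside the span of the Y-linked means, and Ucp1 did not pass (limma, adjusted p = 0.0882). Ppargc1a, a coactivator of mitochondrial genes, averaged 53.3 ± 3.41 in caNrf2 skin and 70.8 ± 8.79 in control skin (SD, n = 3 each). The caNrf2 mean lies inside the span of the Y-linked means, as do both means of its 4 other probe sets, so the size of its change is uncertain. Its change on the log2 scale was -0.40 ± 0.09 (SE; adjusted p = 0.0445 in limma), and 5 settings lost the call, at an adjusted p of up to 0.126. The 4 other probe sets were lower as well, at -0.45, -0.26, -0.25 and -0.46. Elovl3, an elongase found in brown fat and in sebaceous glands, averaged 746 ± 42.1 in caNrf2 skin and 973 ± 52.7 in control skin (SD, n = 3 each). On the log2 scale it changed by -0.38 ± 0.07 (SE; adjusted p = 0.015 in limma), lost without caNrf2 replicate 3 (adjusted p = 0.0632) and without control replicate 1 (0.0675).

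Markers of the other cell types in the sample bear on how the back skin was cut and what it held. Of 15 genes of striated muscle, which marks the panniculus carnosus under the fat, 0 rose and 0 fell, with a median of -0.06, and their summed intensity was 69192 to 71531 in caNrf2 arrays and 70222 to 74605 in control arrays. Of these Myh3 (-0.17 ± 0.07), Myh4 (-0.40 ± 0.18) and Tnnt3 (-0.18 ± 0.10), which encode parts of the contractile apparatus, had the smallest p-values. Of 9 fibroblast genes 0 rose and 0 fell, with a median of -0.06, and the sums were 76239 to 78555 in caNrf2 arrays and 78834 to 81568 in control arrays. Of 10 endothelial genes 0 rose and 0 fell, with a median of 0.08, and the sums were 3369 to 3437 in caNrf2 arrays and 3109 to 3234 in control arrays. Macrophages, which like endothelium can also carry Fabp4, showed 0 of 9 genes called, a median of 0.03 and sums of 4427 to 5115 in caNrf2 arrays and 4611 to 4886 in control arrays. At an unadjusted p under 0.05 the muscle list had 1 gene lower, the endothelial list 1 higher, and the fibroblast and macrophage lists 0.

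The lists of keratinocyte, sebaceous, nerve and blood cell genes complete this check. Of 9 keratinocyte genes 1 fell, Ivl (-0.55 ± 0.08), and 8 did not pass, with a median of 0.01 and sums of 99125 to 101443 in caNrf2 arrays and 97598 to 99290 in control arrays. Of 8 measured sebaceous genes 2 rose, the glutathione transferase Mgst1 (0.55 ± 0.06) and the desaturase Fads2 (0.40 ± 0.07), and 3 fell, the desaturase Scd3 (-0.92 ± 0.11), Far2, which makes fatty alcohols (-0.39 ± 0.08), and Elovl3 (log2 fold change ± SE; limma, adjusted p at most 0.0274 for these 5). The sebaceous list had the lowest median of the cell type lists, -0.15. At an unadjusted p under 0.05, 2 of its genes were higher and 5 lower, 87.5% of the list beside 20.4% of all genes. Its sums were 16756 to 17303 in caNrf2 arrays and 15362 to 16158 in control arrays. Mgst1 alone read 7195, 7659 and 7771 in caNrf2 arrays, against 5230, 5279 and 4961 in control arrays. The higher sums came from Mgst1, so they do not show more sebaceous content. Far2 lost its call in 6 settings and Fads2 in 4. Of 5 nerve and Schwann cell genes and 5 blood cell genes 0 were called in either direction (0 and 1 at an unadjusted p under 0.05), with medians of -0.04 and 0.04. Only 5 of 9 blood entries were measured, and the means of Hba-a1 and Hba-a2 lay inside the span of the Y-linked means. The blood list is therefore a weak gauge of blood content. The sums of the nerve list were 5192 to 5388 in caNrf2 arrays and 5394 to 5665 in control arrays, and those of the blood list 469 to 498 in caNrf2 arrays and 439 to 566 in control arrays. Over all cell type lists, the sums of the fibroblast, endothelial, sebaceous, nerve and brown fat genes did not overlap between the genotypes. The sum over all genes did not overlap either, at 1.06801e+07 to 1.07026e+07 in caNrf2 arrays and 1.07102e+07 to 1.08294e+07 in control arrays. The fibroblast, nerve and brown fat sums were lower in caNrf2 skin, as was that total by a smaller proportion. The endothelial and sebaceous sums were higher, against the direction of the total. None of these sums is read as a difference in cell type content, which was not tested. The part of any of these sums in the result for Lep was not tested. All 8 genes of the Nrf2 check rose, with a median of 1.56. The sebaceous list shares Elovl3 and Cidea with the brown fat list, so those counts are not independent.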

How the data were processed

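Whole back skin of 3 caNrf2 and 3 control mice was read on Affymetrix arrays, each from 2 ug of total RNA per the labels' protocols. The authors deposited linear intensities, 1 per probe set, made with RMA according to the submitters' processing notes. The version of RMA is not given in the sources used here. On the array were 45101 probe sets, 34945 with 1 gene symbol, 932 with several and 9160 with none, and 64 controls. Current symbols came from a RefSeq table of GRCm38.p6 by Entrez identifier, which held 34741 of these.

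Intensities were log2-transformed without filter and fitted with limma 3.58.1 in R 4.3.3 (lmFit and eBayes, group as the only term) over 18193 genes, with 4 residual and 5.52 prior degrees of freedom. Two-sided p-values were adjusted by Benjamini-Hochberg over all genes, and the fit was checked on simulated data. Further probe sets were taken from the same fit over all single-symbol probe sets. The genes and the 19 lists (203 of 226 entries matched) were chosen with earlier results of these data known. Named are all members, every called gene of a list, and otherwise the 3 smallest p-values of it, except where stated. Precision is limited by the number of arrays, and RMA would hide a shift of most transcripts in 1 direction. Same-numbered arrays deviated together only weakly (correlations 0.03, 0.13 and 0.09). The samples share only a number, so pairing was used only as an alternative. Alternatives were an intensity trend, robust variances, array weights, a pseudocount of 16, another quantile normalization, averaged probe sets, a filter at a mean intensity of 32, a replicate block and leaving out each array.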

Additional observations from a re-analysis of the deposited data

How the results depend on the processing

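The log2 fold change of Lep kept its direction and its call under all 14 alternatives, at -0.63 to -0.52 in all and at -0.63 to -0.55 with single arrays left out. Its smallest shift was with log2(value + 16). The median of the 7 other measured genes stayed between -0.05 and 0.04, both ends with an array left out, and Lep minus that median between -0.61 and -0.53 over all alternatives and between -0.61 and -0.53 with arrays left out. In each alternative 1 gene of the set was lower and 0 were higher. With the replicate number as a replicate block, Lep had -0.58, and 353 genes were higher and 237 lower in caNrf2 skin, against 412 and 253 without it. The samples share only a number. Of the arrays, only caNrf2 replicate 1 correlated better with another number, control replicate 3 (0.07), than with its own (0.03). Counts over all genes depended more on the settings. The lower count was 453 with an intensity trend and 501 with robust variances as well. With single arrays left out, the higher count ran from 226 (without control replicate 1) to 316 and the lower count from 72 (without control replicate 1) to 196. The higher count was also lower by more than 1.5-fold without caNrf2 replicate 3 (244) and without control replicate 3 (265), and the lower count without caNrf2 replicates 1, 2 and 3 (146, 131 and 95). The cause was not tested, beyond the smaller number of arrays. Signal over background limits the reading of Ucp1, Ppargc1a, Nfe2, Hba-a1, Hba-a2 and the second Lipe probe set.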
